A study of Bos taurus with 20 samples.

Results

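The enzymes that make, recycle and use glutathione were followed over the cell types of the bovine antral follicle. The 10 genes are GCLC, GCLM and GSS (synthesis), GSR (recycling), GPX1, GPX3 and GPX4 (peroxidases), and GSTA1, GSTA5 and GSTP1 (transferases). They are 10 of the 22517 genes or transcripts on a custom bovine Agilent microarray, found by their gene name in the array annotation. They were chosen from among the enzymes of this system with their levels on these same arrays known. Their levels and differences are therefore given as a description, with a standard error (SE) and no p-value. Tests are given for 85 related genes that are not among the 10. That list, too, was drawn up with earlier results of these data known. Its adjusted p-values and counts are therefore not those of a list set without sight of the data.

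Each of the 20 arrays was hybridized in 1 colour with Cy3-labelled cRNA from 200 ng of total RNA. Theca (TH, scraped from the follicle wall), granulosa (GC) and cumulus (CC) cells and the oocytes, all immature, came from follicles of 3 to 6 mm in slaughtered cows, with 4 arrays per cell type. Another 4 arrays held CC detached after 4 h of in vitro maturation (IVM). The cells carried no genetic change and the labels name no added compound. The study calls the 4 samples of a cell type biological replicates, whereas the labels do not say how many animals each one pooled, so the errors measure the spread between these samples.

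Glutathione is a tripeptide of glutamate, cysteine and glycine and the most abundant small thiol of animal cells. Glutamate-cysteine ligase, made of a catalytic subunit (GCLC) and a modifier subunit (GCLM), joins glutamate to cysteine in the rate-limiting step, and glutathione synthetase (GSS) adds glycine. Glutathione peroxidases reduce peroxides with it and leave the oxidized disulfide, which glutathione reductase (GSR) returns to the reduced form with NADPH. Transferases join it to electrophiles such as lipid peroxidation products and xenobiotics. Oocytes are known to build up glutathione during maturation, for use after fertilization, and CC are known to support that synthesis.

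Levels are log2 of the processed spot intensity minus the 75th percentile of the array, so that 0 is the level of a probe at that percentile, and a gene's level is the median over its spots. A difference of 1 is a 2-fold change. Levels of different genes come from different probes and are not compared with each other. Between 49.3 and 68.8% of the probes of an array were well above background, the lowest share being that of oocyte replicate 2, and no spot was saturated. The oocyte arrays were the brightest (75th percentile 1521 to 2891 against 368.1 to 1101 in TH, GC and CC) and the arrays of CC after IVM the dimmest (284.5 to 395.9). Slide 1 held replicates 1 and 2 of TH, GC, CC and oocytes, and slide 2 held their replicates 3 and 4. All 4 arrays of CC after IVM were on a slide of their own, so slide and maturation cannot be told apart in any comparison with them. The theca markers and the oocyte markers were highest in the groups of that name, those of granulosa and cumulus cells in GC, CC or CC after IVM, and HAS2, a gene of the expanding cumulus, was at −5.56 ± 0.72 (SD) in CC and 2.20 ± 0.59 after IVM. PTGS2 and TNFAIP6, also listed for the expanding cumulus, were not found under these names on the array. PTX3, the remaining gene of that list, was at −0.66 ± 0.52 and −0.77 ± 0.98, with overlap.

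Each enzyme had probes of 2 sequences of 60 bases. The sequences shown are the ones on which the reading of a level depends, written as on the array. Capitals mark only the longest run shared with a probe of another transcript. Shorter runs shared with probes of other genes, 14 bases in GCLC probe 1 and 15 in GPX4 probe 1, are not marked. The probes of GCLC and GSS are given because these genes carried the largest TH to GC and maturation differences among the synthesis genes. Both probes of GPX4 are given because they read very different levels. The GSTA1 probe is given because its capitals mark a run of 23 bases that it shares with a probe for an unnamed neighbouring transferase transcript (ENSBTAT00000035828, chr23:24851502-24872822).
GCLC probe 1: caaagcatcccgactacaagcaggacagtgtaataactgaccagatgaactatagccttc
GSS probe 1: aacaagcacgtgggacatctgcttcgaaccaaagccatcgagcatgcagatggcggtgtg
GPX4 probe 1: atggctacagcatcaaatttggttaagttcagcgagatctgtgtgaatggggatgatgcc
GPX4 probe 2: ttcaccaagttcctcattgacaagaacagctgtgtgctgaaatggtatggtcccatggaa
GSTA1 probe 1: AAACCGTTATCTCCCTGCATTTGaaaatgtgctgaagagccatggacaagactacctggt
Both GSTA5 probes lie in 1 stretch and have 49 bases in common, so they are not independent readings of that gene. On the UMD 3.1 build of the array, GCLC lies at chr23:6922380-6965163, GCLM at chr3:49741375-49759098, GSS at chr13:64842138-64867355 and GSR at chr27:25943820-25973543. GPX1 lies at chr22:51325106-51326274, GPX3 at chr7:64286948-64295116 and GSTP1 at chr29:46087142-46090005. GSTA1 (chr23:24875608-24890466) and GSTA5 (chr23:24894759-24916117) are neighbours in a row of transferase genes with GSTA2, GSTA3 and GSTA4.

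**Figure D1:**
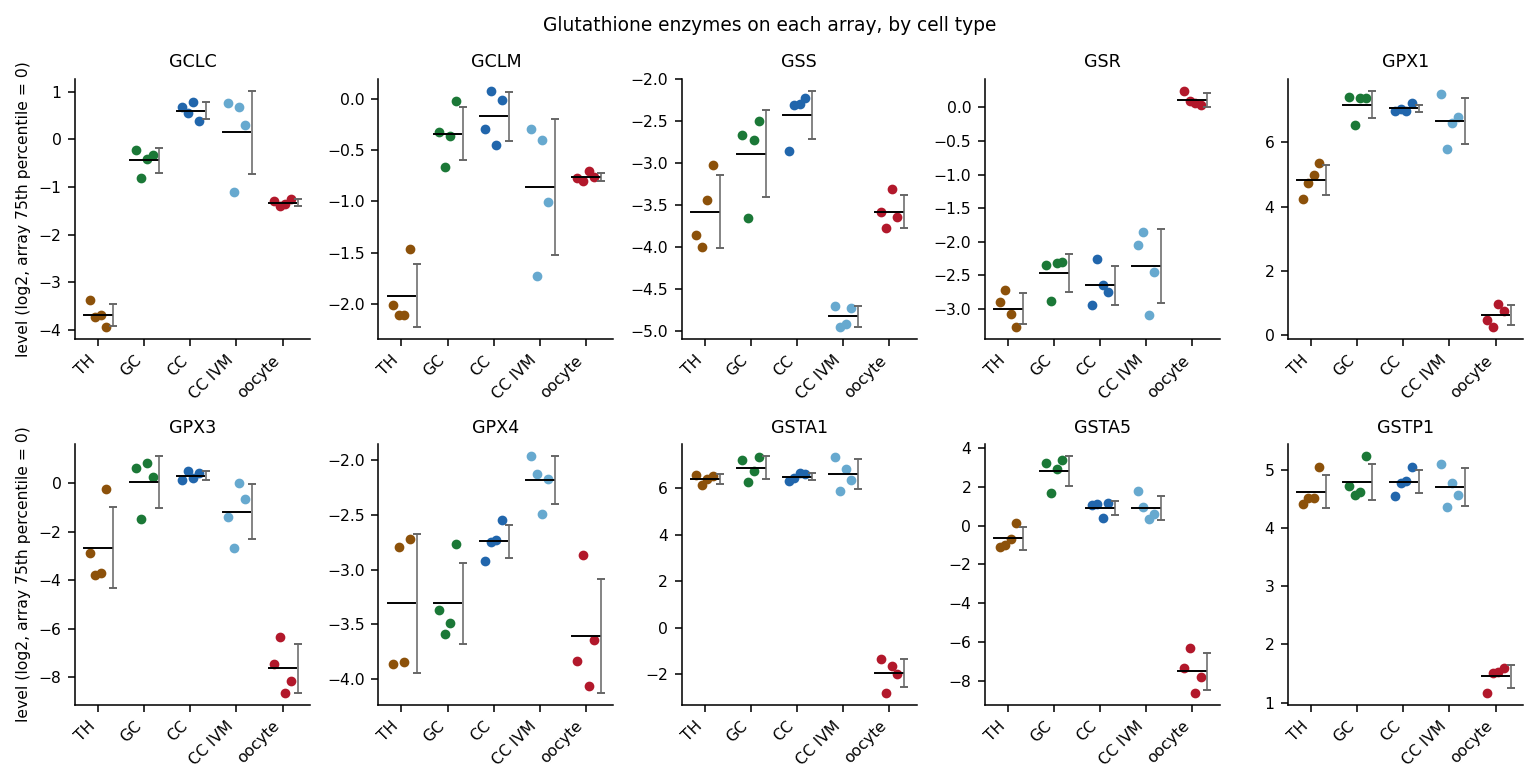
Level of each enzyme on every array (points, log2, with the 75th percentile of the array at 0) for TH, GC, CC, CC after 4 h of IVM and the oocyte, with the group mean (line) and SD (bar) and a scale of its own in each panel. The oocyte points lie below all others for GPX1, GPX3, GSTA1, GSTA5 and GSTP1 and above all others for GSR.

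GCLC, the catalytic subunit of the first enzyme of synthesis, was lowest in TH and highest in CC. Its level was −3.38, −3.74, −3.69 and −3.95 on the 4 TH arrays and −0.22, −0.81, −0.42 and −0.33 on the GC arrays. On the CC arrays it was 0.67, 0.56, 0.79 and 0.38, and on the oocyte arrays −1.30, −1.41, −1.35 and −1.25. TH, oocyte, GC and CC thus followed each other in that order with no overlap between neighbours. The means ± SD (n = 4) were −3.69 ± 0.24 in TH, −1.33 ± 0.07 in the oocyte, −0.44 ± 0.26 in GC and 0.60 ± 0.18 in CC. GCLC was lower in TH than in GC by a log2 difference of −3.25 (SE 0.17), with −3.05 within slide 1 and −3.45 within slide 2. It was higher in CC than in GC by 1.04 (SE 0.17), with 1.13 and 0.96 within the slides. Both probes of GCLC gave these differences, with −3.36 and −3.13 for TH and 0.97 and 1.12 for CC. The summed signal of 6 oocyte markers, with the 75th percentile of the array set to 1, was 0.561 to 3 in CC against 0.178 to 0.399 in GC, and their part in the GCLC difference was not tested.

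In CC after IVM the GCLC levels were 0.76, −1.11, 0.67 and 0.29. Replicates 1 and 3 were inside the CC range, replicate 4 just below it and replicate 2 far below. The difference of −0.45 (SE 0.38) between CC after IVM and CC was −0.03 without replicate 2.

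GCLM, the modifier subunit, had the same lowest cell type. Its mean was −1.92 ± 0.31 in TH (range −2.11 to −1.47), −0.34 ± 0.26 in GC (−0.66 to −0.02), −0.17 ± 0.24 in CC (−0.45 to 0.08) and −0.76 ± 0.04 in the oocyte (−0.80 to −0.70). TH did not overlap with GC, CC or the oocyte, and the oocyte did not overlap with GC or CC, whereas GC and CC did overlap. The TH to GC difference was −1.58 (SE 0.18), with −1.57 within slide 1 and −1.60 within slide 2. The difference between CC and GC was 0.17 (SE 0.18). After IVM the range of GCLM was −1.73 to −0.29, which overlapped with CC.

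GSS, which adds glycine, had its lowest levels in CC after IVM. It was at −3.86, −4.00, −3.44 and −3.03 in TH, at −2.67, −3.66, −2.73 and −2.50 in GC, and at −2.86, −2.31, −2.30 and −2.23 in CC. The oocyte arrays were at −3.59, −3.78, −3.31 and −3.64. The 4 arrays of CC after IVM were at −4.71, −4.96, −4.92 and −4.73, below every array of the other groups. The difference between CC after IVM and CC was −2.40 (SE 0.20), with −2.42 and −2.34 for its probes. This lay at the edge of what the dim arrays could read, since the lowest level well above background was −5.12 to −4.59 on the IVM arrays and −5.73 to −5.26 on the CC arrays. GSS was above background on 3 of the 4 IVM arrays, with probe 1 above it on 1 array and probe 2 on 2. With normexp background correction the difference was −0.57, and in the deposited table −1.26. TH, GC and the oocyte overlapped in GSS, and the difference between TH and GC was −0.69 (SE 0.27).

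GSR, which returns oxidized glutathione to the reduced form, was the 1 enzyme of the 10 with its highest level in the oocyte. The oocyte arrays were at 0.25, 0.09, 0.06 and 0.04. The TH arrays were at −2.90, −2.73, −3.08 and −3.28, the GC arrays at −2.35, −2.89, −2.32 and −2.30, and the CC arrays at −2.94, −2.26, −2.65 and −2.76. All oocyte arrays were thus above all somatic arrays, and the somatic groups next to each other in the order of their means (GC, CC, TH) overlapped. The oocyte was higher than the somatic mean (that of TH, GC and CC) by 2.81 (SE 0.15), or 7.04-fold, with 2.85 within slide 1 and 2.78 within slide 2. Its probes gave 2.95 and 2.72. After IVM the CC arrays ranged from −3.09 to −1.86 and overlapped with CC before IVM (difference 0.29, SE 0.29).

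Of the peroxidases, GPX1, the widespread cytosolic enzyme for hydrogen peroxide, was highest in GC and CC and lowest in the oocyte. It was at 7.40, 6.53, 7.38 and 7.36 in GC, and at 6.98, 7.04, 6.97 and 7.21 in CC. The TH arrays were at 4.23, 4.74, 4.97 and 5.35, and the oocyte arrays at 0.49, 0.25, 0.98 and 0.75. GC and CC overlapped, TH was below both, and the oocyte was below TH. The difference was −2.35 (SE 0.25) between TH and GC, with −2.48 within slide 1 and −2.21 within slide 2, and −5.73 (SE 0.21) between the oocyte and the somatic mean. The latter equals a level 53-fold lower. After IVM the levels were 7.49, 5.78, 6.59 and 6.79, a mean of 6.66 ± 0.70 around the CC mean of 7.05 ± 0.11. In bulk samples, fewer cells of a type and less RNA per cell cannot be told apart, and this holds for every comparison here.

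GPX3, the secreted peroxidase, did not rise well above background on the oocyte arrays. Its somatic levels were −2.89, −3.80, −3.71 and −0.25 in TH, 0.63, −1.50, 0.83 and 0.25 in GC, and 0.12, 0.51, 0.21 and 0.41 in CC. TH replicate 4 stood far above the other TH arrays and inside the range of GC. The summed signal of the granulosa and cumulus markers was 18.2 to 33.4 over the TH arrays against 110 to 450 over the GC arrays, and the part of such RNA in GPX3 was not tested. TH was therefore lower than GC by −2.71 (SE 0.71) with overlap between the groups, and by −3.52 without TH replicate 4. With the processing used for these levels, the somatic mean was at least 35.2-fold above the oocyte, the oocyte being set at the lowest level its arrays could read. The measured difference of −6.88 (SE 0.58) was −7.31 without oocyte replicate 2. It was −4.34 with normexp background correction and −4.43 in the deposited table, both smaller in size than that bound. In CC after IVM GPX3 was at −1.40, −2.66, −0.01 and −0.64, all below the 4 CC arrays. That difference was −1.49 (SE 0.48), and −0.99 without IVM replicate 2, the lowest of the 4. Its probes gave −1.45 and −1.52.

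GPX4, known as the peroxidase that reduces lipid hydroperoxides in membranes, could be read from only 1 of its probes. Probe 1 stood well above background on 0 of 20 arrays (group means −7.99 to −6.72), whereas probe 2 was above it on all 20. The transcript to which the array assigns both, at chr7:51944664-51945231, spans 568 bases, and the GPX4 gene of the RefSeq table (ARS-UCD2.0 assembly) spans 2448. None of its 10 nearest named genes on the array, among them ETF1, HSPA9 and CTNNA1, was within 15 genes of GPX4 in RefSeq (0 of 10), against 8 to 10 of 10 for the other 9 enzymes. The annotated position thus has other neighbours than GPX4 has in RefSeq, and how much of the signal of probe 2 came from GPX4 transcripts was not tested.

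Probe 2 of GPX4 read −0.28, 0.13, −0.40 and 1.87 in TH, 0.62, 0.10, 0.10 and 1.46 in GC, and 1.17, 1.91, 2.01 and 2.33 in CC. After IVM it read 2.91, 1.78, 2.31 and 2.41, and in the oocyte 0.92, 0.58, 0.83 and 0.75. CC was above the oocyte on all arrays, whereas CC overlapped with GC, with TH and with CC after IVM. Taken as the median over both probes, as for every other gene, GPX4 was at −2.74 ± 0.15 in CC and −2.18 ± 0.22 after IVM with no overlap (difference 0.56, SE 0.19, and 0.27 with quantile normalization), of which probe 1, below background, gave 0.61 and probe 2 gave 0.50. The difference between CC and GC was 0.57 for the median and 1.28 for the brighter probe.

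**Figure D2:**
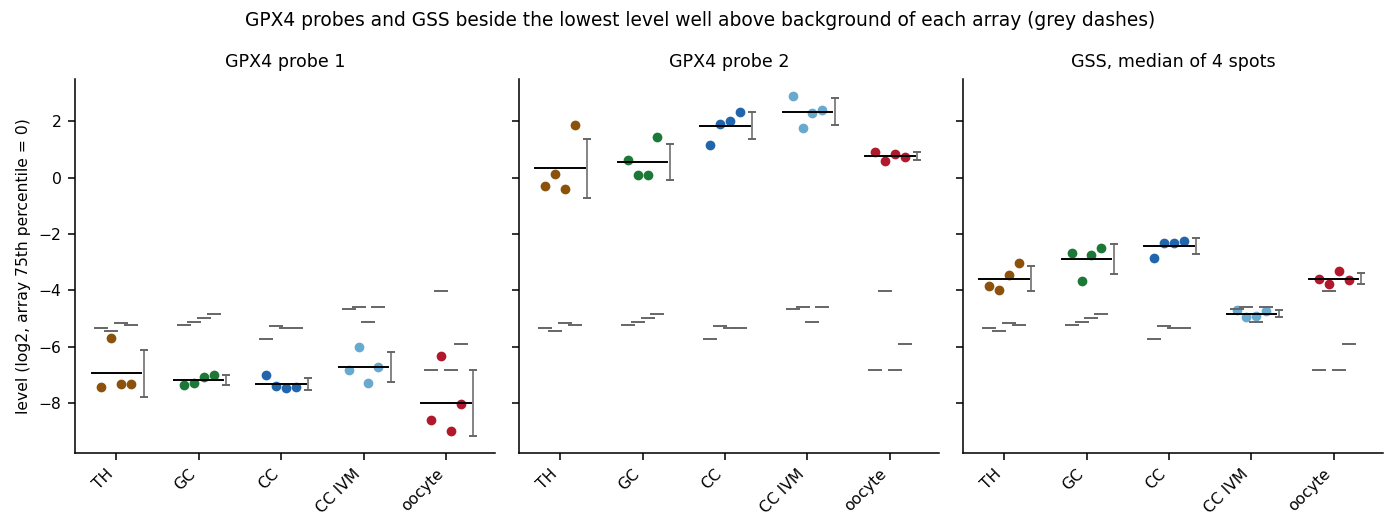
Levels on every array (points, log2, with the 75th percentile of the array at 0) of both GPX4 probes and of GSS, with the group mean (line), the SD (bar) and, as grey dashes, the lowest level well above background on each array. Probe 1 of GPX4 passed the background mark on 0 of 20 arrays and probe 2 on all 20, and GSS in CC after IVM lay at the dashes of that group.

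All 3 transferases had their lowest levels in the oocyte. GSTA1, an alpha-class enzyme, was at 6.55, 6.12, 6.38 and 6.54 in TH, at 7.23, 6.26, 6.76 and 7.32 in GC, and at 6.31, 6.46, 6.66 and 6.59 in CC. The CC arrays after IVM were at 7.35, 5.89, 6.84 and 6.36. These 4 somatic groups overlapped, with differences of −0.49 (SE 0.29) for TH and −0.39 (SE 0.29) for CC against GC. The oocyte arrays, at −1.35, −2.79, −1.64 and −1.99, were all above background but far below, with a difference of −8.54 (SE 0.23) from the somatic mean, or 373-fold. Probe 1 gave −9.21 and probe 2 −7.88. The unnamed transcript that shares 23 bases with probe 1 had somatic means of 5.78 to 6.16 in TH, GC and CC, and its oocyte mean was −2.78 ± 0.42. The part of this transcript in the signal of the GSTA1 probe was not tested. The array file describes these probes as GSTA3, while their accession is GSTA1 in the RefSeq table.

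GSTA5, the neighbouring alpha-class gene, separated the somatic groups. It was at −1.09, −1.0, −0.70 and 0.15 in TH, at 3.24, 1.68, 2.93 and 3.40 in GC, and at 1.05, 1.10, 0.40 and 1.18 in CC. After IVM it was at 1.77, 0.95, 0.35 and 0.62. TH, CC and GC followed each other with no overlap, and CC before and after IVM overlapped. The difference was −3.48 (SE 0.46) between TH and GC, with −3.51 and −3.44 within the slides, and −1.88 (SE 0.46) between CC and GC, with −1.39 and −2.37 within the slides. On the 4 oocyte arrays GSTA5 stayed at background, and the somatic mean was at least 122-fold above the lowest level these arrays could read. The measured difference of −8.55 (SE 0.38) was −5.77 with normexp background correction and −5.96 in the deposited table, both smaller in size than that bound.

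GSTP1, the pi-class transferase, had overlapping ranges in all 4 somatic groups, between 4.37 and 5.24 over their arrays. TH had a mean of 4.63 ± 0.29, GC one of 4.79 ± 0.31, CC one of 4.80 ± 0.20 and CC after IVM one of 4.71 ± 0.32. The oocyte was at 1.17, 1.51, 1.53 and 1.60, below all somatic arrays, with a difference of −3.29 (SE 0.16), or 9.78-fold.

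GC replicate 2 was the lowest of the 4 GC arrays for each of the 10 enzymes. Its summed theca marker signal was 114, against 29.8, 100 and 34.1 in GC replicates 1, 3 and 4 and 574 to 831 in TH, and the part of this in the levels was not tested. Without it the difference between TH and GC was −3.85 for GSTA5, −2.56 for GPX1, −3.37 for GCLC and −1.69 for GCLM. In CC after IVM, replicate 2 was the lowest array for GCLC, GCLM, GSS, GPX1, GPX3, GSTA1 and GSTP1.

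**Figure D3:**
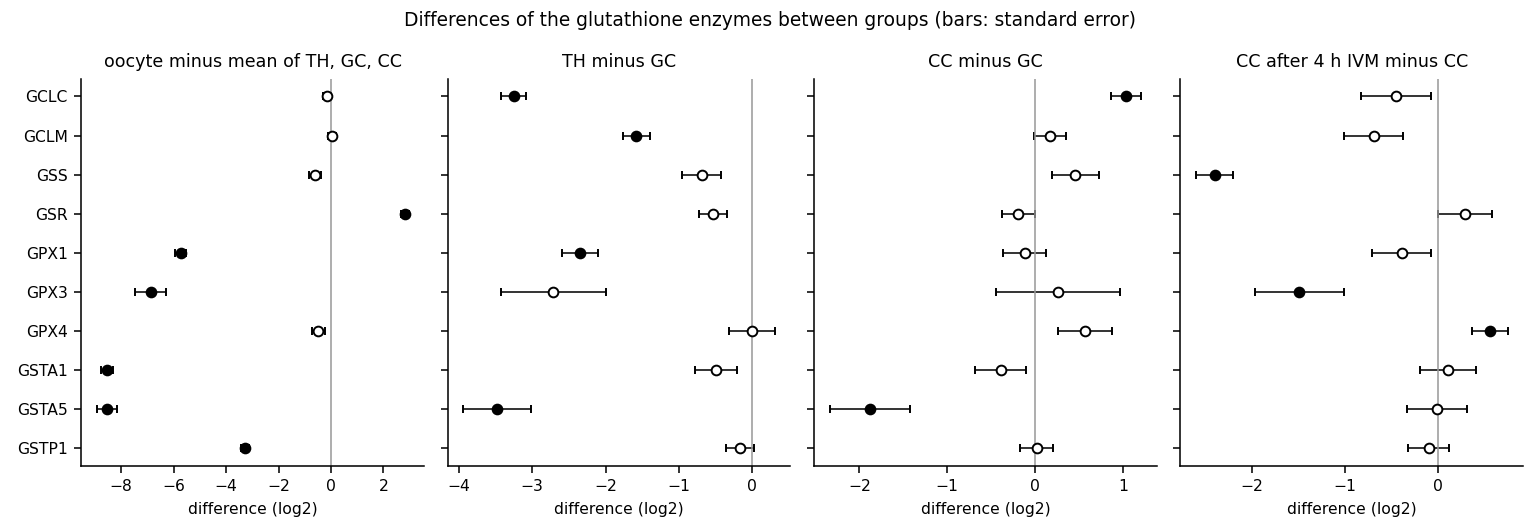
Difference of each enzyme (log2, point, with its standard error as a bar) between the oocyte and the mean of TH, GC and CC, between TH and GC, between CC and GC, and between CC after 4 h of IVM and CC. Filled points mark comparisons in which every array of one side lay beyond every array of the other, such as GSTA5, GPX1, GCLC and GCLM for TH minus GC.

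Put together by comparison, 5 of the 10 enzymes were lower on every oocyte array than on every TH, GC and CC array and 1 (GSR) was higher, while 20.6% of all genes on the array were lower and 25.3% higher by this measure. TH lay below GC without overlap for 4 of the 10 (18.6% of all genes) and above it for 0 of 10 (11.8%). CC lay above GC for GCLC alone (7.91%) and below it for GSTA5 alone (18.1%). CC after IVM lay below CC for GPX3 and GSS (14.9%) and above it for the 2-probe median of GPX4 (29.1%). The 10 enzymes were chosen with these levels known, so nothing is read from these shares. Both probes had the same sign in all 15 of these differences, although probe 1 of GPX4 was at background and the GSTA5 probes, behind 3 of the 15, overlap. Each level was the median over the spots of these same probes, so this agreement was in part built in. The median over all genes was −0.52 for the oocyte, −0.23 for TH minus GC, −0.16 for CC minus GC and 0.37 for IVM minus CC, and with quantile normalization it was −0.01, −0.07, −0.01 and 0.01.

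The genes whose 5 group means, centred on each gene, lay nearest to those of an enzyme (Euclidean distance in log2 units, 14455 named genes above background in at least 1 group) are given as a description. SKP2 was nearest to GSR at a distance of 0.02, with means of −5.23 in TH, −4.73 in GC, −4.89 in CC, −4.61 after IVM and −2.14 in the oocyte. Its TH and IVM means lay at the lowest level well above background there (−5.45 to −5.15 and −5.12 to −4.59), which limits this likeness. CHD2 was nearest to GPX4 (0.14), whose means rest in part on its probe at background, RING1 to GSTP1 (0.18), CCDC51 to GSS (0.21) and NUDT16 to GCLM (0.30). CCDC51 was at −2.49 in CC and −4.95 after IVM, as GSS was at −2.43 and −4.83. Both values after IVM lay at the lowest level well above background on the IVM arrays (−5.12 to −4.59), which limits this likeness. For the enzymes with wider ranges the nearest genes were farther away, with IFNAR2 for GSTA1 (0.54), ANGPT2 for GPX1 (0.54), SYNPR for GCLC (0.69), CA14 for GPX3 (0.71) and VNN1 for GSTA5 (1.01). The oocyte means of IFNAR2 (−7.41) and ANGPT2 (−7.76) lay below the lowest level well above background on the oocyte arrays (−6.84 to −4.02). GSTA1 and GPX1 were above background on all 4 oocyte arrays, so these likenesses are limited in the oocyte. VNN1 had its highest mean in GC at 3.93, with 0.93 in CC and 0.01 in TH.

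The enzymes were then set beside 91 genes of the wider glutathione and thiol system, of which 85 were on the array and 79 were above background in at least 1 group, that is on 3 or more of its 4 arrays. By limma with Benjamini–Hochberg adjustment over all 22517 genes, 32 of the 85 were higher in the oocyte and 37 lower, against the somatic mean (32.9% and 38.3% of all genes), with a median difference of −0.35 over the list. Beside GSTA1, GSTA5 and GSTP1, 16 of the other 19 transferases were lower in the oocyte and 2 were higher (median −1.84). GSTA2 was at least 37.2-fold lower (adjusted p = 1.4e-10), and GSTA3 at least 25.7-fold lower (adjusted p = 2.9e-08), with 2 of 4 oocyte arrays above background. HPGDS, 1 of the 16, was not above background in any group. Of the peroxidases 4 of 5 were lower, GPX7 of the endoplasmic reticulum by −4.75 (SE 0.13, adjusted p = 3.4e-14), although 2 of the 4, GPX5 and GPX6, were not above background in any group.

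Genes of glutathione turnover and cysteine supply were mostly higher in the oocyte, 9 of 14 against 2 lower (median 1.25), 1 of the 2 being CHAC2, not above background in any group. GGT6, of the gamma-glutamyltransferase family, was at least 30.3-fold higher (adjusted p = 1.8e-11), a bound because it was above background on 1 of the 12 somatic arrays. GGCT, which breaks down gamma-glutamyl peptides, was higher by 6.20 (SE 0.21, adjusted p = 3.6e-13). All 6 genes of glutathione-dependent detoxification and export were higher. ABCC2, an exporter of glutathione conjugates, was at least 124-fold higher (adjusted p = 1.4e-15), with 2 of 12 somatic arrays above background. The glutaredoxin GLRX, which uses glutathione to reduce protein disulfides, was at least 25.1-fold higher (adjusted p = 4.5e-10), with 3 of 12 somatic arrays above background, and 2 of 4 glutaredoxins were higher and 1 lower. HMOX1, haem oxygenase, was lower by −6.38 (SE 0.25, adjusted p = 2.4e-12).
In the remaining groups, 1 gene was higher and 3 lower of 7 for NADPH supply, 5 and 7 of 17 for the thioredoxin system and other antioxidant enzymes, 3 and 3 of 6 for NRF2 regulators, and 4 and 1 of 7 for selenocysteine insertion.

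Between TH and GC, where GCLC, GCLM, GPX1 and GSTA5 were lower in TH, 13 of the 85 genes were higher and 13 lower in TH (11.8% and 14.5% of all genes, list median 0.06). The transferases were called higher in 6 of 19 cases and lower in 1 (median 0.46). The mu-class GSTM3 was higher in TH by 2.13 (SE 0.19, adjusted p = 7.6e-07), GSTM1 by 2.05 (SE 0.24, adjusted p = 9.2e-06) and GSTM4 by 1.89 (SE 0.33, adjusted p = 0.00053). ANPEP, an aminopeptidase, was at least 19.5-fold higher (adjusted p = 2.2e-05), with 3 of 4 GC arrays above background. Lower in TH were HMOX1 by −2.45 (SE 0.31, adjusted p = 2.2e-05) and ME1, malic enzyme, by −1.33 (SE 0.40, adjusted p = 0.022). CHAC1, a glutathione-degrading enzyme, was at least 2.59-fold lower (adjusted p = 0.00018), with 3 of 4 TH arrays above background. SLC7A11, the cystine and glutamate exchanger, was at least 2.38-fold lower (adjusted p = 0.022), with 2 of 4. GPX6, 1 of the 13 called lower, was not above background in any group. The summed signal of the endothelial markers was 1.35 to 4.38 in TH and 0.0395 to 0.113 in GC, and their part in these differences was not tested. With 2 arrays per group within a slide, 7 were higher and 2 lower on slide 1, and 9 and 3 on slide 2.

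Between CC and GC, where GCLC was higher and GSTA5 lower in CC, 9 of the 85 were higher and 6 lower (5.28% and 4.61% of all genes, list median −0.02). Higher in CC were CHAC1 by 1.69 (SE 0.32, adjusted p = 0.0031), the small MAF factors MAFF by 1.49 (SE 0.38, adjusted p = 0.02) and MAFG by 1.09 (SE 0.16, adjusted p = 0.00059), and H6PD, at least 1.21-fold (adjusted p = 0.024). SLC7A11 was at least 3.36-fold lower (adjusted p = 0.0016), TXNIP, which binds thioredoxin, lower by −1.77 (SE 0.29, adjusted p = 0.001), SOD2, the mitochondrial superoxide dismutase, by −1.01 (SE 0.27, adjusted p = 0.025) and IDH1 by −0.63 (SE 0.15, adjusted p = 0.014). Within slide 1 and within slide 2 limma called 0 higher and 0 lower (8 and 7 on slide 1, and 6 and 8 on slide 2, at an unadjusted p under 0.05). The split of 9 and 6 was 6 and 8 with the percentile taken over probes above background on all arrays, and 12 and 2 in the deposited table.

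After 4 h of IVM, 21 of the 85 genes were called higher and 14 lower in CC (30.3% and 15.6% of all genes, list median −0.15). Of the 21, 5 (GGT1, GGT6, GPX2, HPGDS and MAFK) were not well above background on 3 arrays of either group, which leaves 16, and the floor of the IVM arrays was the higher one. The 30.3% of all genes was not filtered in this way, so the counts without such genes have no like share beside them. Of the 14 genes of turnover and cysteine supply, 7 were called higher and 1 lower (median 0.29), or 5 and 1 without GGT1 and GGT6. SLC7A11 rose at least 9.41-fold (adjusted p = 5e-04), its partner chain SLC3A2 by 3.03 (SE 0.40, adjusted p = 0.00041) and CTH, which makes cysteine from cystathionine, by 3.92 (SE 0.32, adjusted p = 2.6e-05). SRXN1, sulfiredoxin, rose at least 25.3-fold (adjusted p = 5.3e-06), with 1 of 4 CC arrays above background. Of the 6 NRF2 regulators 4 were called higher (BACH1, MAFF, MAFG and MAFK), or 3 without MAFK, and 0 lower. NFE2L2, the gene of NRF2 itself, was not called (0.40, SE 0.17, adjusted p = 0.073), and neither was KEAP1 (−0.46, SE 0.22, adjusted p = 0.11). Falling genes were GSTT4 by −2.46 (SE 0.32, adjusted p = 0.00038), CAT, catalase, by −2.12 (SE 0.25, adjusted p = 0.00022), and HMOX1 by −1.48 (SE 0.20, adjusted p = 0.00042). TXNRD2, the mitochondrial thioredoxin reductase, was called lower (adjusted p = 0.0096), but was above background on 2 of 4 IVM arrays, and against their floor no fall was measurable. The enzymes that turn cysteine into glutathione were at −0.45 (GCLC, SE 0.38), −0.69 (GCLM, SE 0.32) and −2.40 (GSS, SE 0.20) in the same comparison. Without IVM replicate 2 the difference was −0.03 for GCLC and −0.40 for GCLM, and both overlapped with CC. GSS after IVM lay at the floor of these arrays, and its difference was −0.57 with normexp background correction. The summed oocyte marker signal was 0.561 to 3 in CC and 0.161 to 0.561 after IVM, and its part was not tested. The split of 21 and 14 was 38 and 15 with normexp background correction and 26 and 32 in the deposited table.

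**Figure D4:**
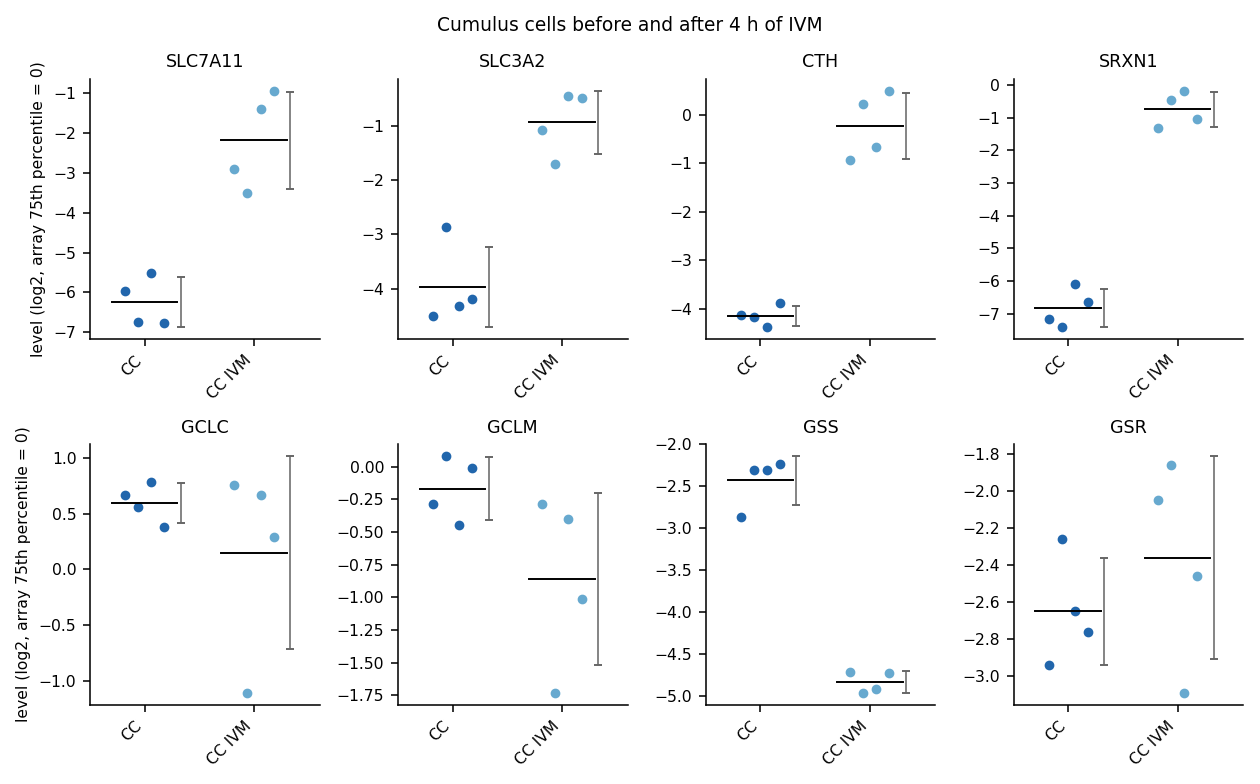
Levels on each array (points, log2, with the 75th percentile of the array at 0), with mean (line) and SD (bar), of SLC7A11, SLC3A2, CTH and SRXN1 (upper row) and of GCLC, GCLM, GSS and GSR (lower row) in CC before and after 4 h of IVM. The upper 4 genes lay above CC on every array after IVM, GSS lay below, and GCLC, GCLM and GSR overlapped.

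**Figure D5:**
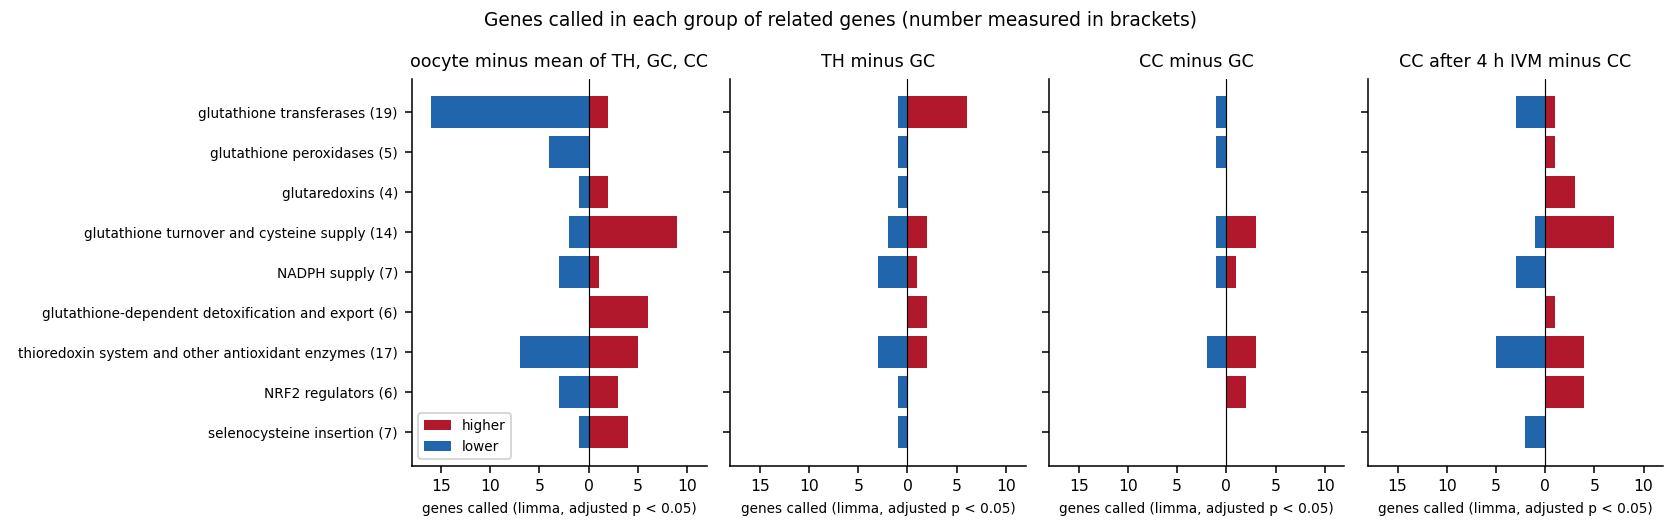
Number of genes called higher (red, to the right) or lower (blue, to the left) by limma at an adjusted p under 0.05, for 9 groups of related genes in the 4 comparisons, with the number of genes measured in brackets. Transferases were mostly lower in the oocyte (16 of 19), and 7 of 14 genes of turnover and cysteine supply were called higher after IVM, of which 5 were well above background.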

How the data were processed

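The authors deposited Agilent Feature Extraction output (version 10.7.3.1, annotated on UMD 3.1) for 20 1-colour arrays, which lists the intensity of each spot (mean, median, background and processed signal, the processed one with its background subtracted and without normalization between arrays) beside marks, coded 0 or 1, that a spot was an outlier, saturated or well above background. They also deposited a table of log2 values. Each of its columns equalled log2 of the median signal minus the array median within 5e-09 (median 0). How it was made is otherwise not given in the sources used here.

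Control and outlier spots (0 to 23 per array) were dropped, each array's 75th percentile over 61325 probes was subtracted from log2 of its processed signals, and the median over the spots of a gene was taken. Of 9779 probes unnamed in the files, 798 found a symbol through their accession in the RefSeq table. Models were fitted with limma 3.58.1 (lmFit, eBayes) in R 4.3.3 on the 16 arrays of the immature cell types, and separately on the 8 arrays of CC and CC after IVM, with p-values two-sided and adjusted by Benjamini–Hochberg over 22517 genes, at a threshold of 0.05. The fits were tested on simulated data. Figures used matplotlib 3.10.9 under Python 3.11.15 (numpy 2.4.6, pandas 2.3.3).

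The 10 enzymes and the list of 91 related genes were chosen with earlier results of these data known. Of the list, the text names for each comparison the 4 largest rises and 4 largest falls among genes called that were well above background on at least 3 arrays of a compared group, beside the nearest gene in pattern of each enzyme (probes for endogenous retroviruses were left out as no gene, after their values were seen). Genes named to explain a count, such as the NRF2 regulators after IVM, fall outside this rule. A level not above background on any array of a group is given as a bound, against the higher of the measured level and the lowest level well above background on each array, and so is a named related gene above it on only some arrays of its lower side. Such a bound holds only for this processing. The number of arrays, 4 per group, limits the precision. No pair of arrays held identical values (0 pairs), and arrays of 1 group correlated at 0.966 to 0.992.

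The groups share replicate numbers in the labels. Deviations from the group means of same-numbered TH and GC samples correlated at 0.20, 0.33, 0.34 and 0.45 over 11355 genes, so these numbers may pair them. Same-numbered samples also shared a slide, and whether the number or the slide lay behind these correlations was not tested. The main fits, with their SE and p-values, did not use the pairing, and the replicate block was an alternative. Other pairs of groups did not all exceed 0.1. The alternatives were quantile normalization, the array median, the 75th percentile over probes above background on all arrays, normexp (offset 50), the deposited table, the brightest probe or the mean of a gene's probes, dim genes filtered out, 1 fit to all 20 arrays, the replicate number and the slide as blocks, fits within a slide, each replicate left out, and the methods' analysis of variance. The slide as a random block for IVM was added after seeing the data.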

Additional observations from a re-analysis of the deposited data

Results flagged for a closer look

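In groups of 4 arrays, the highest or lowest array was set against the others by its gap to the nearest one over the range of the group (Dixon's critical value for 4 values, which chance passes in about 1 of 20 groups). Of 185 groups, 50 of the 10 enzymes and the rest of the 27 named related genes, 15 passed. Among the enzymes these were 6 groups. GC replicate 2 was low for GPX1 (6.53, the others 7.36 to 7.40) and GSR (−2.89, the others −2.35 to −2.30). TH replicate 4 was high for GSTP1 (5.05, the others 4.42 to 4.52) and GCLM (−1.47, the others −2.11 to −2.01). CC replicate 3 was low for GSTA5 (0.40, the others 1.05 to 1.18) and CC replicate 1 for GSS (−2.86, the others −2.31 to −2.23).

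Among the related genes, CC replicate 1 was high for GSTA3 (1.68, the others −1.34 to −0.83) and low for GSTM4 (−4.37, the others at −3.98), and CC replicate 4 was high for ABCC2 (−6.25, the others −7.03 to −6.97). Oocyte replicate 1 was high for SLC3A2 (−1.20, the others −3.00 to −2.73), CHAC1 (−1.30, the others −2.33 to −2.22) and SOD2 (0.70, the others −0.59 to −0.37), and oocyte replicate 4 was low for CAT (2.14, the others 2.35 to 2.37). CC replicate 1 after IVM was high for GSTM3 (6.36, the others 4.77 to 4.93), and GC replicate 1 was low for H6PD (−6.33, the others −5.87 to −5.78), which was not above background on any GC array.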

How the results depend on the processing

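The 40 differences of the 10 enzymes were computed again under each alternative. Of the values obtained, 906 moved by less than the SD between replicates and 34 by more, and 0 differences without overlap changed sign. Several alternatives could not move a difference and add to the 906 without testing it. These were the fit to all 20 arrays, the filter on dim genes, the replicate and slide blocks and the methods' analysis of variance. For GSTA1, GSTA5, GPX1, GPX3, GPX4 and GCLC, with 2 spots each, the mean of the probes equalled the median and could not either. Of the related genes, the counts of 32 higher and 37 lower in the oocyte stayed between 28 and 39 and between 31 and 48 over all alternatives. Signal over background limits GSS after IVM, GSTA5 and GPX3 in the oocyte, and 9 named differences of the related genes whose lower side was above background on only some arrays. It also limits GSTA2 in the oocyte, H6PD for CC against GC, and SLC7A11 for CC against GC and after IVM. The lower side of these was above background on no array. For TH against GC, 7 were higher and 2 lower within slide 1 and 3 lower within slide 2. For CC against GC, 5 were higher and 3 lower with the array median, 2 lower in the deposited table, 3 lower with all 20 arrays in 1 fit, and 0 and 0 within slide 1 and within slide 2. Leaving out 1 array gave 2 to 10 higher and 2 to 8 lower for CC against GC, the higher count being 3 without GC replicate 1 or 3, 4 without GC replicate 2 or CC replicate 1 or 3, and 2 without CC replicate 2 or 4, and the lower count 2 without CC replicate 1. For CC after IVM, 38 were higher with normexp, 32 lower in the deposited table, 32 lower with the slide as a random block and 7 lower by the methods' analysis of variance. That slide block could not separate slide from maturation, since the IVM arrays were on a slide of their own. Without 1 array the lower count was 7 to 21, with 8 without CC replicate 1, 7 without CC replicate 2 or 3, and 9 without CC replicate 4 or IVM replicate 4. With the replicate block, 19 were higher and 8 lower after IVM, where the samples share only a number (correlations of −0.23 to −0.04), 13 and 13 for TH against GC, 8 and 7 for CC against GC, and 33 and 36 for the oocyte, so the block changed no other count by over 1.5 times. The split of all genes called, 7417 higher and 8633 lower in the oocyte, was 5409 and 15101 with normexp. For TH against GC 2666 and 3265 became 3082 and 2432, and for CC against GC 1188 and 1037 became 1032 and 1445, with the percentile over probes above background on all arrays, and the latter 1713 and 627 in the deposited table. For IVM 6818 and 3503 became 2754 and 3619 with quantile normalization and 14693 and 2950 with normexp. The causes were not tested.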
